A study of Rattus norvegicus with 18 samples.

Results

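Nppa and Nppb encode the precursors of atrial and B-type natriuretic peptide, the hormones that heart muscle releases when its walls are stretched. Both genes were picked from the table by their rat Ensembl identifiers (ENSRNOG00000008176 for Nppa, ENSRNOG00000008141 for Nppb). They are 2 of the 30560 genes in the deposited count table, and both were among the 17009 genes that passed the filter on low counts. The table itself holds identifiers without symbols, and the reference at hand, with 47357 genes, pairs 0 of the 30560 identifiers with a symbol, so the names rest on the list of identifiers and could not be checked against an annotation. RNA was sequenced from hearts of 18 male Wistar rats aged 3 weeks. Their mothers had been given, while pregnant, vehicle (7 offspring), cannabidiol at 3 mg/kg/day (CBD3, 6 offspring) or cannabidiol at 30 mg/kg/day (CBD30, 5 offspring). Cannabidiol is a cannabis constituent that does not intoxicate. The labels give no genotype and name no chamber of the heart, and they do not say whether any of the animals were littermates; p-values therefore measure the spread between these samples and treat each heart as independent.

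Both precursors are cut to short peptides that circulate and bind a receptor on kidney, vessel and heart, natriuretic peptide receptor A, which makes cyclic GMP. The result is loss of salt and water and lower blood pressure. In the rodent ventricle both genes are active before birth and Nppa then falls, while the atria keep a high level of Nppa through life; renewed ventricular transcription of both is a widely used sign of load or hypertrophy. The 2 genes lie next to each other on chromosome 5 in the RefSeq annotation of assembly GRCr8. Their transcription is known to depend on cardiac factors such as GATA4 and NKX2-5.

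The promoters are shown because each gene is a known target of GATA factors and because the 2 genes are neighbours whose variation across hearts is compared here. Each window runs from 250 bases before to 50 bases after the start of transcription in RefSeq, build GRCr8, which is not the build named for the deposited counts (mRatBN7.2). Nppa lies at chr5:163711934-163712233 and Nppb at chr5:163699758-163700057, both on the plus strand. Capitals mark GATAA, the core of the motif that GATA factors bind.
Nppa: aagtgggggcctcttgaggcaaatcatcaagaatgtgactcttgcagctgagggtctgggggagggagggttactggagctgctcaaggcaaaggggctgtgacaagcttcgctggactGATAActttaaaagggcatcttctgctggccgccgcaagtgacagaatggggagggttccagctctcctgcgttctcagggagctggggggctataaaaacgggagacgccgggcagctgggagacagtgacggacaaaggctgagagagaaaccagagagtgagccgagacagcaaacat
Nppb: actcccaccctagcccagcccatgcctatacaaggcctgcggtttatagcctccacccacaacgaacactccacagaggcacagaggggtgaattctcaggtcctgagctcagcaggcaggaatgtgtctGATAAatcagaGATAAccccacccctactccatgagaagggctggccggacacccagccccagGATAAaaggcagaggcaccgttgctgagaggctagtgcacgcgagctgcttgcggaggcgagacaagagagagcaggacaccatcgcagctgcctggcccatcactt
GATAA was searched on both strands. The Nppa window held 1 match, at bases -131 to -127 from the start, and the Nppb window held 3, at -120 to -116, -109 to -105 and -57 to -53, all on the strand of the gene. A match to GATAA was present in 26.1% of the 27457 RefSeq promoter windows of this length. AAGTG, the core of the element bound by NKX2-5, had 2 matches in Nppa, at -250 to -246 and -95 to -91, and 1 in Nppb at 46 to 50 on the opposite strand, and 46.0% of windows held it. GGAATG, the M-CAT element of muscle genes, had 1 match in Nppb at -131 to -126 and 0 in Nppa, against 13.9% of all windows. TATAAA, the TATA box, lay at -39 to -34 in Nppa; the 1 match in Nppb lay at -208 to -203 on the opposite strand, and 14.3% of windows held a match. The CArG box had no match in these letters in either window (1.64% of all windows). No match overlapped a match to another motif in either window, by the positions above. These are matches of letters, and binding was not measured.

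Levels of each gene are given as CPM, its reads scaled to a common library size with TMM factors; gene length is not taken into account, so the levels of the 2 genes are not compared with each other. Libraries held 44127009 to 89240727 counts. Nppa had 4995 to 53026 reads and Nppb 2317 to 13995 reads in a library. If these are unadjusted counts, the counting error alone was at most 1.41% of the value for Nppa and 2.08% for Nppb. Whether the counts were adjusted before deposit is not stated. Hearts are named here by the code in their column heading. In bulk RNA a lower value from fewer cells of one type and one from less RNA per cell cannot be told apart.

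Nppa differed up to 9.77-fold between hearts, and the extremes were both CBD3 animals. In vehicle hearts Nppa ranged from 96.1 to 519 CPM with a median of 145 CPM (n = 7). In CBD3 hearts it ranged from 75.6 to 738 CPM with a median of 140.0 CPM (n = 6). The 5 CBD30 hearts had 98.0, 103, 126, 162 and 196 CPM, with a median of 126 CPM. The 3 medians lay close together, and the groups looked most unlike at their upper end: CBD3 hearts 3.2 and 3.1 (738 and 478 CPM) and vehicle heart 1.1 (519 CPM) stood above all others. The next heart in order, vehicle 1.2, had 284 CPM. No CBD30 heart was above 196 CPM, and every CBD30 value lay inside the range of the vehicle hearts and inside that of the CBD3 hearts.

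Nppb, the gene of the B-type peptide, was lowest in 2 CBD3 hearts and highest in a vehicle heart. In vehicle hearts it ranged from 65.0 to 186 CPM with a median of 107 CPM (n = 7). In CBD3 hearts it ranged from 40.3 to 184 CPM with a median of 161 CPM (n = 6). The 5 CBD30 hearts had 61.7, 62.5, 75.6, 153 and 155 CPM. Vehicle values had no step between neighbours wider than 1.32-fold. The CBD3 values left a wide gap, with 2 hearts at 40.3 and 43.5 CPM, the lowest of the 18, and 4 hearts from 156 to 184 CPM, a step of 3.59-fold. The CBD30 values had a step of 2.02-fold between the third and the fourth heart. The ranges of all 3 groups overlapped. The order within CBD30 hearts was not that of Nppa: heart 1.1, with the least Nppa of the 5 (98.0 CPM), had 153 CPM of Nppb, and heart 3.2, with the most Nppa (196 CPM), had 75.6 CPM of Nppb.

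**Figure D1:**
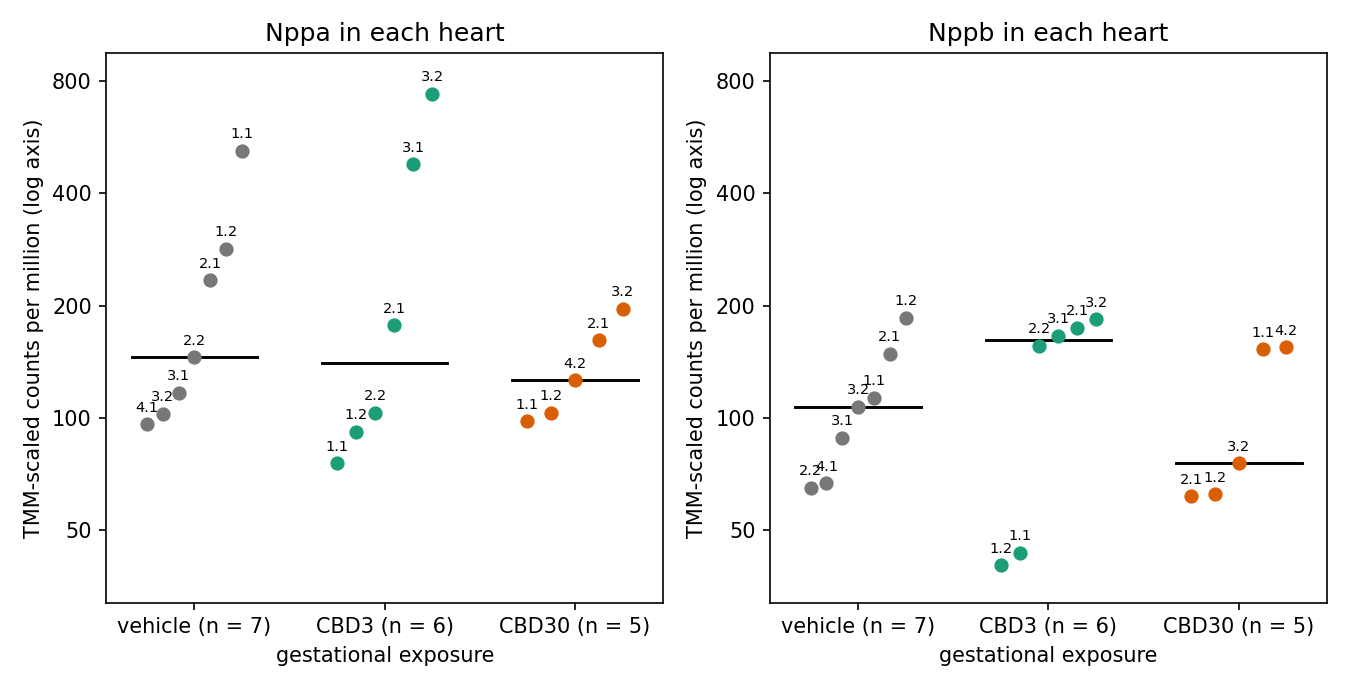
TMM-scaled CPM (log axis) of Nppa, left, and Nppb, right, in each of 18 hearts by gestational exposure; each point is 1 heart with its code, and the horizontal line is the group median. The groups overlap for both genes; 3 hearts have 478 CPM or more of Nppa, and CBD3 hearts 1.1 and 1.2 have the least Nppb.

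Ordered from high to low over the 18 hearts, neighbours in Nppa differed mostly by little. The highest heart (CBD3 3.2) stood 1.42-fold above the second (vehicle 1.1), and the third (CBD3 3.1) stood 1.69-fold above the fourth (vehicle 1.2). The remaining steps were 1.21-fold or less. The SD within groups, 0.995 on the log2 scale, was wider than every step in this order, the 1.42-fold and 1.69-fold steps included. Neighbours in an ordered list lie close by construction, so that comparison sets no step apart. In the order of Nppb the 8 highest hearts, from vehicle 1.2 to vehicle 2.1, lay between 149 and 186 CPM and came from all 3 groups. The widest steps in that order were 1.42-fold, above the 2 lowest CBD3 hearts, and 1.31-fold, below vehicle 2.1.

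Both genes were among the most variable of the abundant genes in these hearts. The SD of log2 CPM within groups was 0.995 for Nppa, against a median of 0.22 over the 1239 genes averaging 100 CPM or more. It ranked 1 of these 1239 genes. Nppb, at 0.78, ranked 6, and its mean of 114 CPM lay just above that cut. Ranks at other CPM cuts were not computed. Over all 17009 tested genes, which include genes of low counts, Nppa ranked 420 and Nppb 1023. How far low counts account for those ranks was not tested. The biological coefficient of variation estimated by edgeR was 60.7% for Nppa and 45.01% for Nppb, where the trend for genes of their abundance was 16.9% and 16.7%.

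**Figure D2:**
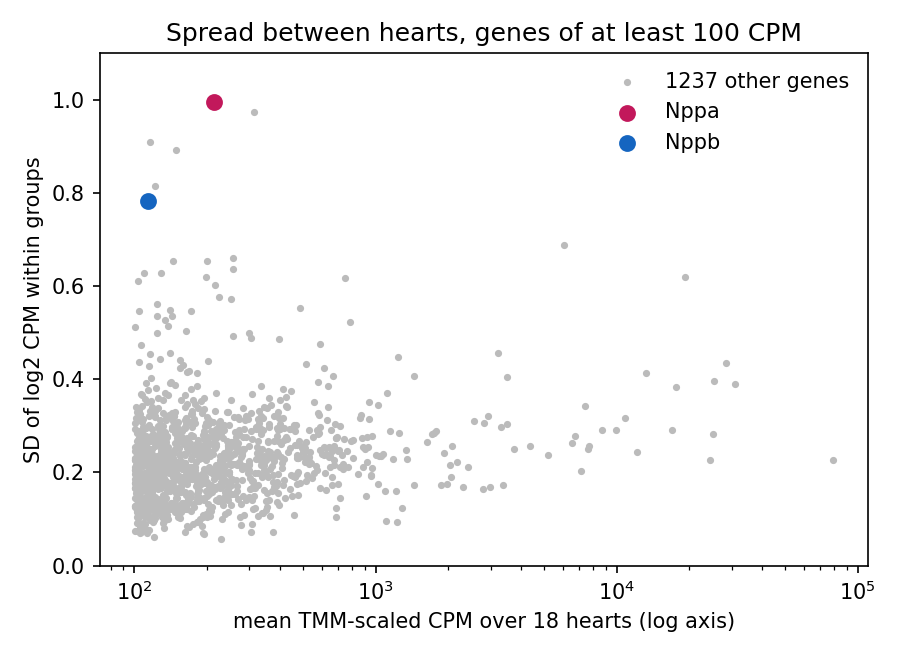
SD of log2 CPM within groups (vertical axis) against mean CPM over 18 hearts (log axis) for the 1239 genes averaging 100 CPM or more; each grey point is 1 gene. Nppa, at an SD of 0.995, is the highest point, and Nppb, at 0.78, ranks 6.

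The spread within a group was not of one size. Mean Nppa was 214 ± 152 CPM with vehicle (SD, n = 7), 277 ± 271 CPM with CBD3 (SD, n = 6) and 137 ± 41.6 CPM with CBD30 (SD, n = 5), which is a coefficient of variation of 71.1%, 97.9% and 30.3%. Mean Nppb was 111 ± 43.9 CPM with vehicle, 127 ± 66.8 CPM with CBD3 and 101 ± 48.1 CPM with CBD30, a coefficient of variation of 39.7%, 52.5% and 47.4%. Nppa had its narrowest spread in CBD30 hearts, while Nppb had its narrowest in vehicle hearts. The differences in spread were not tested.

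CBD30 hearts were set against vehicle hearts to ask whether the higher dose during gestation was followed by another level of these load-responsive genes at 3 weeks. Nppa did not pass the test: with means of 137 ± 41.6 CPM for CBD30 and 214 ± 152 CPM for vehicle, edgeR gave a log2 fold change of -0.64 with a standard error of 0.54 and an adjusted p of 0.544. The fold was 0.640, and its 95% interval ran from 0.293 to 1.399, so both a lower and a higher level lay within it. The difference between mean log2 CPM values was -0.43 for Nppa and -0.16 for Nppb. Nor did Nppb pass: with means of 101 ± 48.1 CPM for CBD30 and 111 ± 43.9 CPM for vehicle, the edgeR log2 fold change was -0.12 with a standard error of 0.39 and an adjusted p of 0.884. Its fold was 0.917, with an interval of 0.524 to 1.61. For Nppa 0 of 5 CBD30 hearts lay outside the range of the vehicle hearts. For Nppb 2 of 5 did, at 62.5 and 61.7 CPM, just under the lowest vehicle heart at 65.0 CPM. After adjustment edgeR called 0 of 17009 genes (0%) and limma voom 0. DESeq2, fitted without the low-count filter, called 134 of 24347 genes. Without vehicle heart 3.1 edgeR called 267 of 16964 genes. Before adjustment 2794 genes (16.4%) had an edgeR p under 0.05, of which 1550 were higher (9.11% of the genes tested) and 1244 lower (7.31%) in CBD30 hearts, and neither Nppa nor Nppb was one of them.

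The size for Nppa rested in part on 1 control heart. Without vehicle heart 1.1 its log2 fold change was -0.25 (edgeR adjusted p = 0.858; 0.414 to 0.998 over all alternatives). The last digit of the code is a label whose meaning is not given. Among the 2 CBD30 and 4 vehicle hearts ending in 1 the value for Nppa was -0.88, and among the 3 CBD30 and 3 vehicle hearts ending in 2 it was -0.32. Nppb had 0.053 and -0.29 in the same subsets, so its sign was not stable. The difference between the subsets did not pass an edgeR interaction test for Nppa (adjusted p = 0.799) or Nppb (adjusted p = 0.844).

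At the lower dose both log2 fold changes were above 0, likewise without a call. With means of 277 ± 271 CPM for CBD3 and 214 ± 152 CPM for vehicle, Nppa had an edgeR log2 fold change of 0.37 with a standard error of 0.50 and an adjusted p of 0.760. The fold was 1.30 (95% interval 0.626 to 2.68). On the scale of mean log2 CPM, which weighs high hearts less, the difference was near 0, at 0.08 (0.07 by limma voom). Of the 6 CBD3 hearts 1 lay above the highest vehicle heart and 2 below the lowest, so the group reached past the vehicle range on both sides. With means of 127 ± 66.8 CPM for CBD3 and 111 ± 43.9 CPM for vehicle, Nppb had an edgeR log2 fold change of 0.20 with a standard error of 0.37 and an adjusted p of 0.823, and a fold of 1.15 (0.678 to 1.96). Its difference in mean log2 CPM was 0.04 (0.03 by limma voom). Here 0 CBD3 hearts lay above the vehicle range and 2 below it. After adjustment edgeR called 0 of 17009 genes (0%) and limma voom 0. DESeq2, fitted without the low-count filter, called 19 of 24347 genes. Before adjustment 1518 genes (8.92%) had an edgeR p under 0.05, 662 higher (3.89%) and 856 lower (5.03%) in CBD3 hearts, without Nppa or Nppb. The log2 fold change of Nppa was -0.21 without CBD3 heart 3.2 and 0.77 without vehicle heart 1.1. It was 0.01 among hearts whose code ends in 1 and 0.81 among those ending in 2, a difference that did not pass the edgeR interaction test (adjusted p = 0.764). Nppb had 0.30 and 0.09 there (edgeR interaction, adjusted p = 0.928). Both doses were compared with the same 7 vehicle hearts.

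Between the doses, Nppa had the widest difference of the 6 values (2 genes in 3 comparisons), again without a call. With means of 137 ± 41.6 CPM for CBD30 and 277 ± 271 CPM for CBD3, its log2 fold change was -1.02 with a standard error of 0.56 (edgeR unadjusted p = 0.0847, adjusted p = 0.999). The fold was 0.494, with a 95% interval of 0.220 to 1.11. A smaller p was found for 3.43% of the genes tested. Small p-values were few over all genes in this comparison, with 1.73% of genes under 0.05. The share with a smaller p was 31.2% for Nppb here and 45.5% to 85.0% for the 2 genes against vehicle. With means of 101 ± 48.1 CPM for CBD30 and 127 ± 66.8 CPM for CBD3, Nppb had a log2 fold change of -0.33 with a standard error of 0.40 (edgeR adjusted p = 0.999) and a fold of 0.796 (0.446 to 1.42). Every CBD30 heart lay within the CBD3 range for both genes. After adjustment edgeR called 0 of 17009 genes (0%) and limma voom 0. DESeq2, fitted without the low-count filter, called 1 of 24347 genes. Before adjustment 294 genes (1.73%) had an edgeR p under 0.05, 125 higher (0.735%) and 169 lower (0.994%) in CBD30 hearts, without Nppa or Nppb. The Nppa value depended on the scale and on 1 heart. The difference between mean log2 CPM values, which weighs high hearts less, was -0.51, and without CBD3 heart 3.2 the edgeR value was -0.43 (unadjusted p = 0.400). By the last digit of the code it was -0.89 for 2 CBD30 and 3 CBD3 hearts ending in 1 and -1.13 for the 3 of each ending in 2, and Nppb had -0.25 and -0.38.

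**Figure D3:**
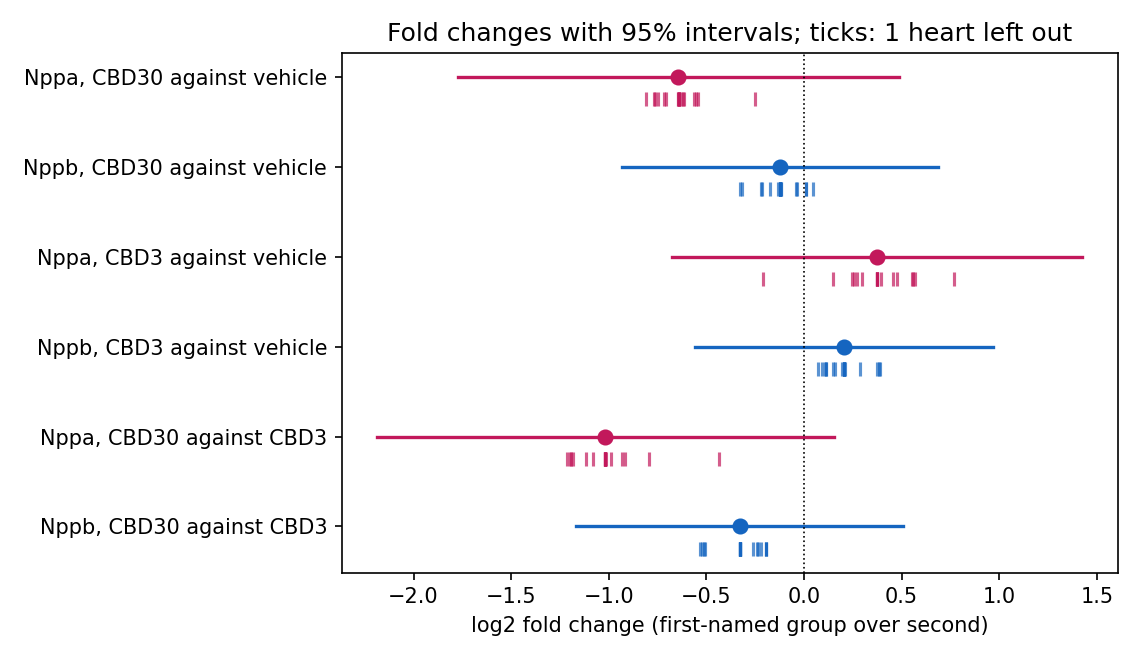
Log2 fold change of Nppa and Nppb in the 3 comparisons (points), with 95% intervals (lines); the ticks under each line are the values with each of the 18 hearts left out in turn. Every interval includes 0; the tick of Nppa for CBD3 against vehicle left of 0, at -0.21, is the fit without CBD3 heart 3.2.

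Across all hearts Nppa and Nppb were positively correlated, but the CBD30 hearts taken alone did not show this order. Over the 18 hearts their log2 CPM values had a Pearson correlation of 0.551 (permutation p = 0.0177, adjusted p = 0.0887 over 5 relations) and a Spearman correlation of 0.598 (permutation p = 0.0101, adjusted p = 0.0506), so that neither passed after adjustment. With values centred by group the Pearson correlation was 0.543 (permutation p = 0.0203). Without the 2 hearts farthest from the median of Nppa, vehicle 1.1 and CBD3 3.2, it was 0.542 (permutation p = 0.0284, n = 16). That subset kept CBD3 hearts 1.1 and 1.2, the 2 lowest of the 18 hearts in both genes. Leaving out CBD3 heart 1.1 alone gave 0.493 and CBD3 heart 1.2 alone 0.517. A fit without both was not run. Within groups the Pearson correlation was 0.600 in vehicle (exact permutation p = 0.157, n = 7) and 0.705 in CBD3 hearts (exact permutation p = 0.0792, n = 6). The 5 CBD30 hearts are under the 6 asked for here for a coefficient, and their values showed no single direction. The pair with the most Nppa, 3.2 and 2.1, had 75.6 and 61.7 CPM of Nppb. The pair with the most Nppb, 4.2 and 1.1, had 126 and 98.0 CPM of Nppa. Heart 1.2 was low in both genes, with 103 CPM of Nppa and 62.5 CPM of Nppb. Among hearts whose code ends in 1 and in 2 the Pearson correlation was 0.556 and 0.549 (exact permutation p = 0.124 and 0.12, n = 9 each). The 2 values of a heart share a library and a scaling factor.

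**Figure D4:**
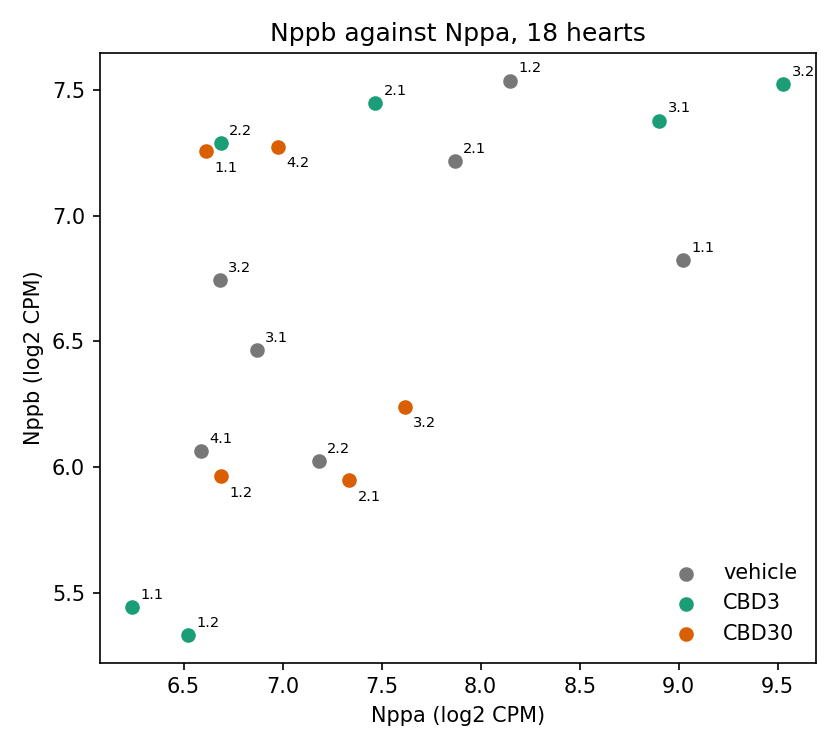
Log2 CPM of Nppb (vertical axis) against log2 CPM of Nppa (horizontal axis) in 18 hearts; each point is 1 heart with its code, coloured by group. The 3 hearts with the most Nppa have from 113 to 184 CPM of Nppb, while hearts with little Nppa lie at both ends of Nppb; the Pearson correlation is 0.551.

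The reads of Nppb per read of Nppa in a library need no scaling between libraries; it takes no account of transcript length, so the ratio compares hearts and not the amounts of the 2 transcripts. It ranged from 0.218 in vehicle heart 1.1 to 1.56 in CBD30 heart 1.1, with a median of 0.621. The 3 hearts with the most Nppa had the 3 lowest ratios, with 0.249 in CBD3 heart 3.2 and 0.348 in CBD3 heart 3.1; Nppa is the divisor of the ratio. The highest after CBD30 heart 1.1 were 1.52 in CBD3 heart 2.2 and 1.23 in CBD30 heart 4.2. The mean log2 ratio was -0.78 ± 0.72 with vehicle (SD, n = 7), -0.82 ± 0.97 with CBD3 (SD, n = 6) and -0.51 ± 0.94 with CBD30 (SD, n = 5). No difference passed the test: it was 0.27 for CBD30 against vehicle (exact two-sided permutation p = 0.583, adjusted p = 0.875 over 3 comparisons), -0.04 for CBD3 against vehicle (exact two-sided permutation p = 0.937, adjusted p = 0.937) and 0.31 for CBD30 against CBD3 (exact two-sided permutation p = 0.58, adjusted p = 0.875).

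No correlation with the size of the library or with the first principal component of the other genes (29.8% of the variance, computed without Nppa and Nppb) passed a test. With the library total, log2 CPM of Nppa had a Pearson correlation of -0.041 (permutation p = 0.871; Spearman -0.139, permutation p = 0.581) and Nppb of -0.039 (permutation p = 0.875; Spearman -0.013, permutation p = 0.961). With the component it was -0.183 for Nppa (permutation p = 0.466; Spearman -0.059, permutation p = 0.817) and -0.126 for Nppb (permutation p = 0.624; Spearman 0.0031, permutation p = 0.993). Adjusted over the 5 relations these 4 had p = 0.875 by Pearson and 0.993 by Spearman. For each relation the 2 hearts farthest from the median of the x axis were also left out. Without vehicle 1.2 and CBD30 4.2, Pearson values with the library total were -0.0043 for Nppa and 0.217 for Nppb. Without vehicle 1.1 and vehicle 2.1, those with the component were 0.162 for Nppa and 0.0061 for Nppb. CBD30 heart 2.1, at the other end of the component, was kept there. Among hearts whose code ends in 1 and in 2, Nppa had -0.496 and 0.215 with the library total and -0.394 and 0.460 with the component. Nppb had -0.147 and -0.014 with the library total and -0.272 and 0.253 with the component. Vehicle hearts 1.1 and 2.1 and CBD30 heart 2.1 lay farthest out on the component. Without these 3 the log2 fold change of Nppa was -0.19 for CBD30 against vehicle and 0.90 for CBD3 against vehicle, again without a call in edgeR.

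Between hearts whose code ends in 2 and those ending in 1, Nppa differed by -0.01 and Nppb by 0.03 on the log2 scale (edgeR adjusted p = 1 for both), and 1 gene of the 17009 had an unadjusted p under 0.05 for this digit. With no gene differing by the digit about 850 such genes would be counted on average. The count of 1 lies far under that and is no evidence that the hearts of both digits were alike. The reason for the low count was not tested. For the interaction of the digit with group, 1535 genes (CBD3) and 2187 genes (CBD30) had an edgeR unadjusted p under 0.05, against the same 850. Mean library totals were higher for digit 1 than for digit 2 in each group. They were 72079092 against 47366589 counts with vehicle, 85049898 against 63839470 with CBD3 and 75222721 against 55263767 with CBD30. The labels do not say whether the counts were adjusted for the digit earlier, and any effect on the p-values for Nppa and Nppb was not tested.

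Genes whose level ran most like each peptide across the 18 hearts were looked for among 13525 other genes averaging 1 CPM or more. For Nppa 41 genes had a Pearson correlation of at least 0.7 and 8 of -0.7 or lower. For Nppb the counts were 3 and 0. Nppb itself came at place 204 in the order for Nppa, and Nppa at place 70 in the order for Nppb. Each order held more than 13525 genes, so both places were near the top, though many genes ran closer to each than its neighbour did. These correlations share the library and its scaling, and the highest of 13525 values is high in part because it was picked.

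The 2 genes most like Nppa were ENSRNOG00000009323 (r = 0.799, and 0.796 centred by group) and ENSRNOG00000034150 (r = 0.797, and 0.815 centred), which have no symbol in the sources used here. ENSRNOG00000009323 had 37.9 CPM in vehicle heart 1.1 and 34.5 CPM in CBD3 heart 3.2, the 2 hearts with the most Nppa, against a median of 21.9 CPM over the 18. ENSRNOG00000034150 had 24.4 CPM in CBD3 heart 3.2 and 22.2 CPM in vehicle heart 1.1, against a median of 12.4 CPM. In CBD3 heart 3.1, the heart with the third most Nppa, they had 24.2 and 13.4 CPM, much nearer those medians. The 2 genes most like Nppb were ENSRNOG00000007785 (r = 0.729), with 4.89 to 6.19 CPM over the 18 hearts, and ENSRNOG00000014556 (r = 0.72), with 0.887 to 2.84 CPM. Their correlation with Nppb was 0.421 and 0.593 among hearts whose code ends in 1 and 0.934 and 0.829 among those ending in 2; for the first 2 genes with Nppa it was 0.763 and 0.661 among hearts ending in 1 and 0.847 and 0.938 among those ending in 2.

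**Figure D5:**
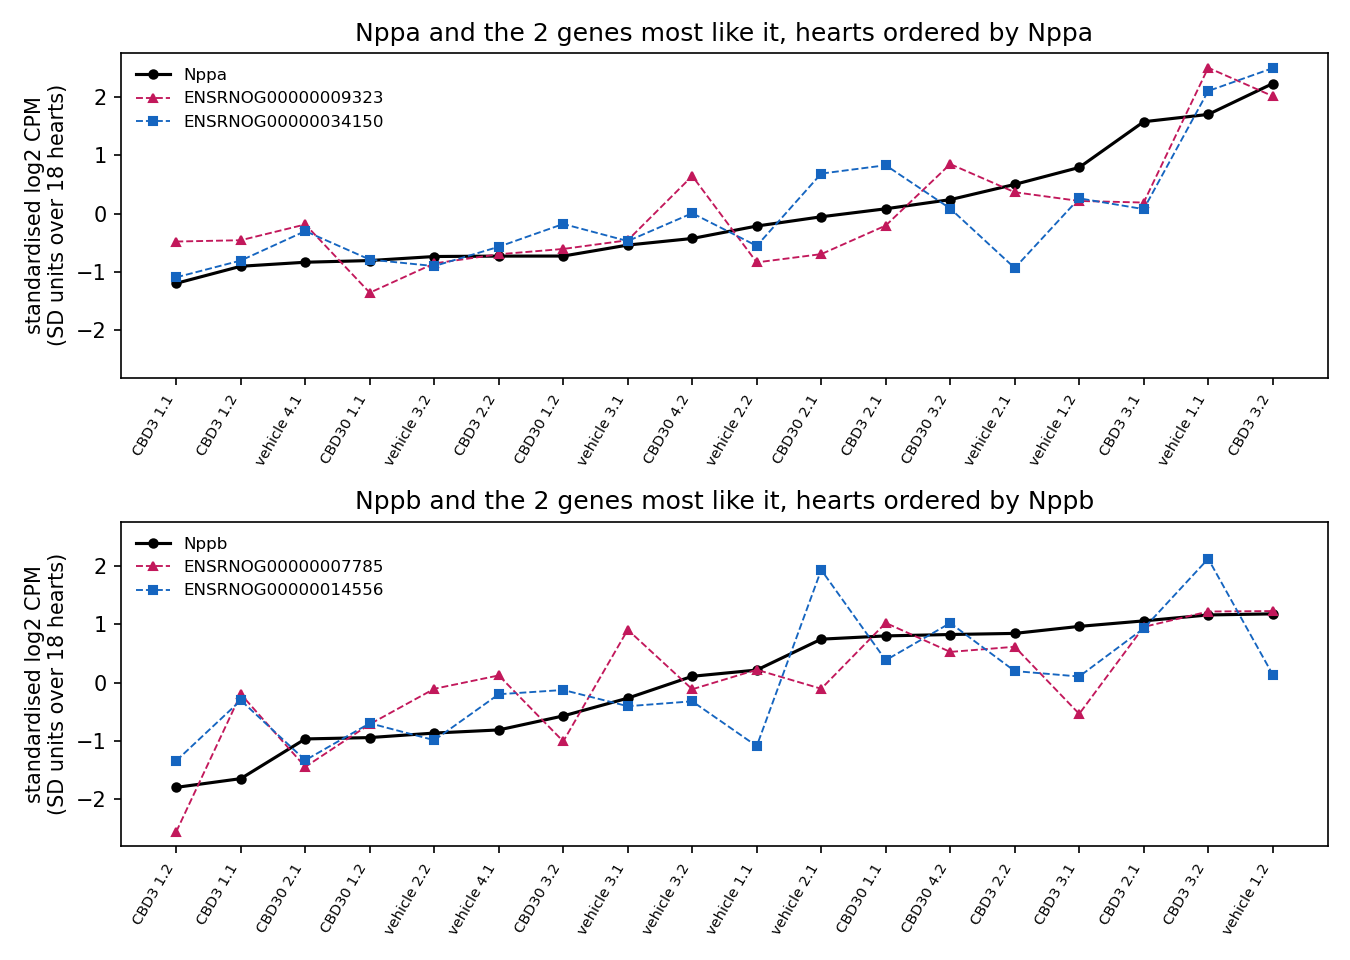
Log2 CPM in SD units over 18 hearts (vertical axis) for Nppa and the 2 genes most like it, top, and for Nppb and the 2 genes most like it, bottom, with hearts ordered by the peptide gene. Both genes in the top panel peak in vehicle heart 1.1 and CBD3 heart 3.2 and have 24.2 and 13.4 CPM in CBD3 heart 3.1.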

How the data were processed

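Bulk RNA of hearts from 3-week-old male rats was sequenced. By the labels' protocols, RNA came from a Trizol-phenol extraction, and a stranded mRNA kit was used for the libraries. The table the authors deposited holds whole-number counts for each gene in each heart; whether they were adjusted before deposit is not stated. Tools and build listed, with no role given, by the submitters' processing notes are featureCounts, edgeR and mRatBN7.2; no aligner, annotation release or counting setting (strand included) is stated in the sources used here. Of the 18 columns, 14 matched 1 sample; 4 vehicle columns matched the labels of a pair of vehicle samples each and were used without a replicate number. In 46 pairs of libraries of 1 group the lowest chi-square per degree of freedom was 34.4, so none was merged.

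Genes were filtered with filterByExpr (minimum count 10, minimum total 15), scaled by TMM and compared in 1 fit of 18 samples by edgeR 4.0.16 (R 4.3.3) with quasi-likelihood F tests. The Benjamini-Hochberg adjustment ran over 17009 genes, with a threshold of 0.05. Libraries held 44127009 to 89240727 counts. Log2 CPM used a prior count of 2. Standard errors come from the F statistic. Correlations used 100000 permutations, or all of them under 10 samples. The test was checked on simulated data. DESeq2 1.42.0 and limma 3.58.1 were alternatives, as were other scaling, filters, sample subsets, a replicate block and each sample left out. The 4 genes named beside Nppa and Nppb are the 2 with the highest Pearson correlation with each, at a mean of at least 1 CPM. The genes and tests were chosen with earlier results of these data known. Lists of pathway and cell type marker genes were kept by symbol; with no symbols paired they were not used, and the labelled tissue was not checked against markers.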

Additional observations from a re-analysis of the deposited data

Results flagged for a closer look

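Dixon's test at its 95% critical value was run on 21 sets of 5 to 7 hearts of 1 group. Of the 9 sets of Nppa, Nppb and their ratio 0 held a heart past that value. Of the 12 sets of the genes most correlated with Nppa or Nppb 4 did; these genes were picked for following Nppa or Nppb, so the usual rate of about 1 in 20 is no yardstick for them. ENSRNOG00000009323 had 37.9 CPM in vehicle heart 1.1, with the nearest vehicle heart at 25.1 CPM, and 34.5 CPM in CBD3 heart 3.2, with the nearest CBD3 heart at 24.2 CPM. ENSRNOG00000034150 had 22.2 CPM in vehicle heart 1.1, with the nearest at 14.04 CPM. ENSRNOG00000014556 had 2.67 CPM in vehicle heart 2.1, with the nearest at 1.46 CPM. Nppa in vehicle heart 1.1 fell just short, at 0.557 of the range against a critical value of 0.568. The cause was not tested.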

How the results depend on the processing

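No setting run brought an adjusted p for Nppa or Nppb under 0.05: over 198 values in 33 settings, the main one included, the smallest was 0.414, 3 unadjusted p-values were under 0.05 (all Nppa for CBD30 against CBD3 with 1 CBD3 heart left out), and 7 values had the other sign. Nppb for CBD30 against vehicle was 0.053 with only last digit 1, 0.35 with a replicate block on the 14 numbered hearts and 0.12 without the 3 hearts farthest out on the first component. The labels do not say whether the numbers pair the hearts. Same-numbered hearts did not always share a code: number 3 was CBD3 heart 3.1 and CBD30 heart 1.2, which differ in the last digit. Of 8 same-numbered pairs 3 had correlated deviations over 0.1 (-0.311 to 0.467), and 2 of 13 hearts correlated best with a partner of their own number. These values cannot settle whether hearts were paired, as no chance rate was computed and 4 vehicle hearts had no number. With the replicate block Nppa was -0.15, 0.17 and -0.32 for CBD30 against vehicle, CBD3 against vehicle and CBD30 against CBD3, and 0 genes were called in each; the same 14 hearts with no block, added after seeing the data together with robust estimation in edgeR, gave -0.36, 0.66 and -1.02. For Nppb the block gave 0.35, 0.52 and -0.17, and the same 14 hearts without it -0.22, 0.11 and -0.33. With 1 heart left out, log2 fold changes in those comparisons ranged from -0.81 to -0.25, -0.21 to 0.77 and -1.21 to -0.43 for Nppa and from -0.33 to 0.048, 0.07 to 0.39 and -0.53 to -0.19 for Nppb. Called genes ranged from 0 to 267 (of 16964, without vehicle heart 3.1), 0 to 0 and 0 to 0. DESeq2, fitted without the low-count filter, called 134, 19 and 1 of 24347 genes. In edgeR on only the 2 groups compared, 1 of 16516 genes was called for CBD30 against CBD3. The log2 ratio of Nppb to Nppa was -0.032 for CBD30 against vehicle with only last digit 2 and 0.17 for CBD3 against vehicle with only last digit 1. With 1 heart left out it ranged from -0.014 to 0.49, -0.32 to 0.20 and 0.02 to 0.60. The correlation of Nppa and Nppb, below 0.05 in unadjusted p over 18 hearts, was 0.556 and 0.549 within the digits, where each held 9 hearts and it no longer passed; it ranged from 0.491 to 0.616 with 1 heart left out. The cause of each of these changes was not tested.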
